A study of Mus musculus with 21 samples.

Results

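VDR-binding peaks of colon epithelium were compared with those of SI crypts after 1,25(OH)2D3. All 4 colon and all 4 SI crypt ChIP-seq samples of the series entered, with the pooled peak list of each tissue. Wherever peaks of the 8 samples shared at least 1 bp they were joined into 1 site, which gave 22899 union sites, out of 28090 when the 4 SI villus samples were joined in as well. A site was called colon-only when all 4 colon samples and none of the SI crypt samples had a peak there, and crypt-only in the opposite case. There were 179 colon-only sites (0.782% of the union) and 36 crypt-only sites (0.157%). Another 308 sites had a peak in all 8 samples. The pooled lists held 22882 peaks for colon and 12702 for SI crypt.

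The C57BL/6 mice of the ChIP-seq samples had received 10 ng/g of 1,25(OH)2D3 1 h before death, and the labels give their age as 4 to 6 weeks, whereas the study's methods give an older age. Both tissues shared this treatment, and no ChIP-seq sample of vehicle-treated mice was used here. The label of the SI crypts is duodenum crypts, collected after EDTA treatment and a strainer, whereas the colon epithelium was scraped from the whole colon. Tissue and way of collection therefore cannot be told apart. The ATAC-seq samples, 3 of each tissue, came from C57BL/6 mice of 90 days.

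VDR is the nuclear receptor of 1,25(OH)2D3. It binds DNA as a heterodimer with RXR, most often at a DR3 element, a direct repeat of the half-site AGGTCA with 3 bases between the copies, and regulates nearby and distant genes. In the intestine the receptor is best known for calcium uptake, for which Trpv6 encodes the apical channel, S100g the cytosolic carrier calbindin-D9k and Atp2b1 the basolateral pump. Cyp24a1, the enzyme that degrades the hormone, is a classical target in most responsive cells. Colon and duodenum differ in their identity factors. GATA4 and PDX1 mark the proximal small intestine, while posterior HOX proteins mark the colon.

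The stretches that come closest to a DR3 element are shown for the 5 strongest colon-only sites outside regions that the authors left out, the 4 strongest crypt-only sites and 4 sites called in all 8 samples, because these sites carry the contrast. Each line gives the gene with the nearest transcription start site (TSS), the mm9 position and strand, and 7 bases on each side of the best match within 100 bp of the summit. Capitals mark the 15-base match.
Tagap, colon-only, chr17:8078682-8078710 (+): gtgctagGGATCAACAGGTTCAttgcaaa
Gda, colon-only, chr19:21535878-21535906 (+): gctcaatGGGTCATGAGGTTCCtctgagg
Azin1, colon-only, chr15:38363317-38363345 (-): gtgggtgAGGGCATGTGGTGCAtgtaagg
Zp1, colon-only, chr19:11000996-11001024 (+): gttccctGCTTTACAAGGGTCActggcca
Nr3c2, colon-only, chr8:79007398-79007426 (+): accttgtAGTTCATTCGGTTCAtaccgca
Med13l, crypt-only, chr5:119523060-119523088 (+): tattaatAAGTCAGAGGGTTCAaccacag
Treml4, crypt-only, chr17:48411789-48411817 (+): tctaatgAGGTCAGGAGGTTCCttctccc
Maf, crypt-only, chr8:118064019-118064047 (-): tgcaggcAGGTCACTGGGTTCCtgttatc
Myo15, crypt-only, chr11:60299870-60299898 (+): ggcacaaGGGTCAGTGGGTGCAgatgtcc
Ptprj, called in all 8 samples, chr2:90328325-90328353 (-): tgggttgGGTTCGTTGGGTTGAagctgtc
Slc30a10, called in all 8 samples, chr1:187326685-187326713 (+): agggaggAGGTCCTTGGGTTCAgagaatc
Crat, called in all 8 samples, chr2:30270930-30270958 (+): ggtgctgGGGTCAGTGGGTTCGcggctcc
Bcas1, called in all 8 samples, chr2:170287306-170287334 (-): catccggGAGTCACTGGGTTCAtgtattg
In the 12 half-site positions the Nr3c2 stretch had no mismatch and 9 stretches had 1. Those of Azin1, Zp1 and Ptprj had 2, so not every leading site held a near match. The next crypt-only site in strength, in Anpep, is not printed, and its best match had 5 mismatches. The search allowed A or G at the first and G or T at the third position of a half-site. A letter match describes the sequence and was not taken as a site of contact.

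Near matches were found on both sides. An exact match occurred at 8 of 179 colon-only sites (4.47%), 0 of 36 crypt-only sites and 19 of 308 sites called in all 8 samples (6.17%), against 1.81% in the whole union. With up to 1 mismatch, 37 of 179 colon-only sites (20.7%), 16 of 36 crypt-only sites (44.4%) and 86 of 308 sites called in all 8 samples (27.9%) held one. In windows of the same length 1 kb away, 0 of 178, 1 of 36 and 2 of 306 did. In the whole union the share was 8.52%. These shares of sites are descriptions, since sites of the same samples are not replicates.

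**Figure D1:**
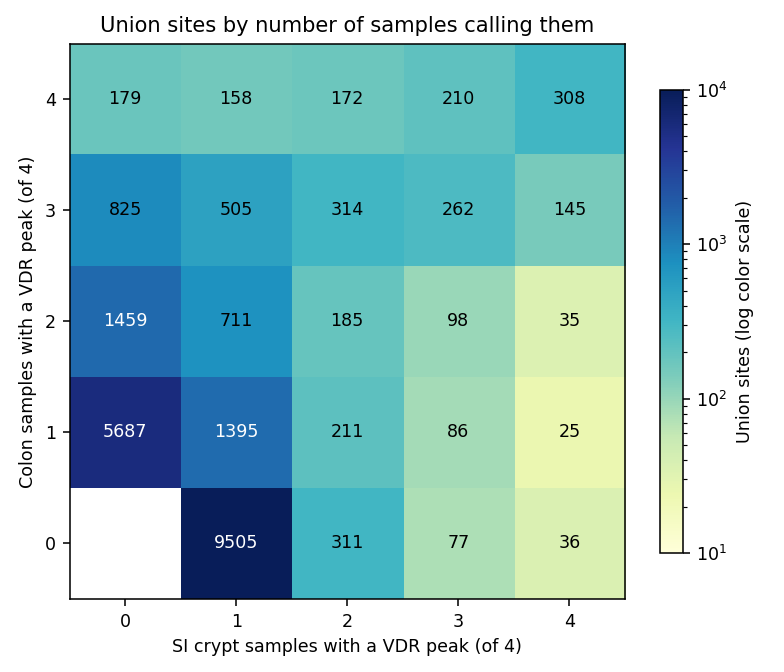
Number of union sites by how many of the 4 SI crypt samples (horizontal axis) and how many of the 4 colon samples (vertical axis) had a VDR peak there, with the color on a log scale. The corner of all 8 samples holds 308 sites, the colon-only corner 179 and the crypt-only corner 36, while 9505 sites had a peak in 1 SI crypt sample alone.

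The libraries were not alike. The colon samples kept 9127982 to 14716273 fragments after duplicate removal and had 1760 to 10100 peaks. The SI crypt samples kept 3100376 to 9021688 fragments and had 1136 to 13381 peaks. SI crypt sample 1 stood apart, with the fewest fragments, a redundant rate of 0.71 and the longest list, 13381 peaks. It alone gave 9061 of the 9505 sites found in 1 SI crypt sample only. A peak list holds no site below the calling threshold, so a missing peak can be binding too weak for the depth of that sample.

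The order of both counts depended on these list lengths. With equal lists, the 1000 strongest peaks of each sample, there were 42 colon-only and 52 crypt-only sites. Without SI crypt sample 1 the counts were 279 and 59. Without colon sample 1, the colon sample with the fewest peaks, there were 888 colon-only sites and 36 crypt-only sites. Crypt-only sites numbered 58 without colon sample 4 and 72 without SI crypt sample 3. The greater number of colon-only sites was thus not kept under equal list length, and the part of sequencing depth in it was not tested.

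The pooled lists, which have more reads behind them, narrowed both sets. Of the 179 colon-only sites, 69 overlapped a peak of the pooled SI crypt list and 15 lay in regions that the authors left out of the pooled intervals. The other 95 were absent from the pooled SI crypt list. Of the 36 crypt-only sites, 27 were absent from the pooled colon list and none lay in a left-out region. Between the pooled lists themselves, 7168 colon peaks (31.3% of that list) overlapped SI crypt peaks, and 7075 SI crypt peaks (55.7%) overlapped colon peaks. Peaks found in both lists were the stronger ones. Their median -log10 q was 11.8 in colon against 4.97 for colon peaks absent from the SI crypt list, and 9.11 against 4.17 in SI crypt.

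The strongest colon-only site lay 40.2 kb upstream of Tagap, which encodes a GTPase-activating protein of T cells (chr17:8078364-8078894, intergenic). Its fold enrichment, the ratio of the summit pileup to the local background, was 10.5, 24.2, 19.1 and 21.9 in colon samples 1 to 4. All 3 colon ATAC-seq samples had a peak there and none of the 3 SI crypt samples did. The second lay in an intron of Gda, the guanine deaminase gene (chr19:21535680-21536058), with 6.56, 19.7, 12.6 and 17.3. No ATAC-seq sample of either tissue had a peak at the Gda site. Both sites nevertheless overlapped a peak of the pooled SI crypt list, as did the sites near Azin1, Zp1 and Prpf4b.

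Of the 8 colon-only sites with an exact DR3 match, the strongest was intergenic, 416 kb upstream of Nr3c2, the gene of the mineralocorticoid receptor, through which aldosterone acts on colonic sodium uptake (chr8:79007049-79007620). Fold enrichment there was 12.3, 22.1, 19.7 and 20.3. It was absent from the pooled SI crypt list and from all 4 SI villus samples, and its chromatin was open in 3 of 3 colon and 0 of 3 SI crypt ATAC-seq samples. At such a distance the nearest gene is only a name for the site. The promoter site 0.563 kb upstream of Rorb, a nuclear receptor gene (chr19:19185924-19186574), had 7.06, 19.6, 17.5 and 21.3 and was likewise absent from the pooled SI crypt list. Colon sample 1 had the lowest fold enrichment at all 10 leading colon-only sites. The other leading sites were near Ank, a pyrophosphate exporter gene, and near Speer4d and Gm17379, and these last sites were in regions that the authors left out.

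On the SI crypt side the strongest site was intergenic and 512 kb from the TSS of Med13l, a Mediator subunit gene (chr5:119522772-119523349). Its fold enrichment was 26.9, 24.7, 15.1 and 19.9 in SI crypt samples 1 to 4. The second lay in an intron of Treml4, a receptor gene of myeloid cells (chr17:48411542-48412192), with 21.3, 26.8, 18.1 and 23.0. The third lay 168 kb downstream of the TSS of Maf, a bZIP factor gene (chr8:118063712-118064245), with 20.3, 28.3, 17.4 and 21.5. All 3 had a peak in each of the 4 SI villus samples, and none had an ATAC-seq peak in any colon sample.

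Further leading crypt-only sites lay in introns of Myo15, an unconventional myosin gene, and Slc14a1, a urea transporter gene, and near Pwwp2b, 4933407C03Rik, Klf3 and Snx10. Their mean fold enrichment was between 9.99 and 16.4. The site in Anpep, the brush-border aminopeptidase N gene, was of another shape. It spanned 1736 bp (chr7:86973594-86975329) with 7.14, 4.51, 3.36 and 3.40, low beside the other leading sites. Over the whole sets, mean fold enrichment per site ran from 2.30 to 20.1 with a median of 7.30 for colon-only sites, and from 3.25 to 22.3 with a median of 9.64 for crypt-only sites.

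**Figure D2:**
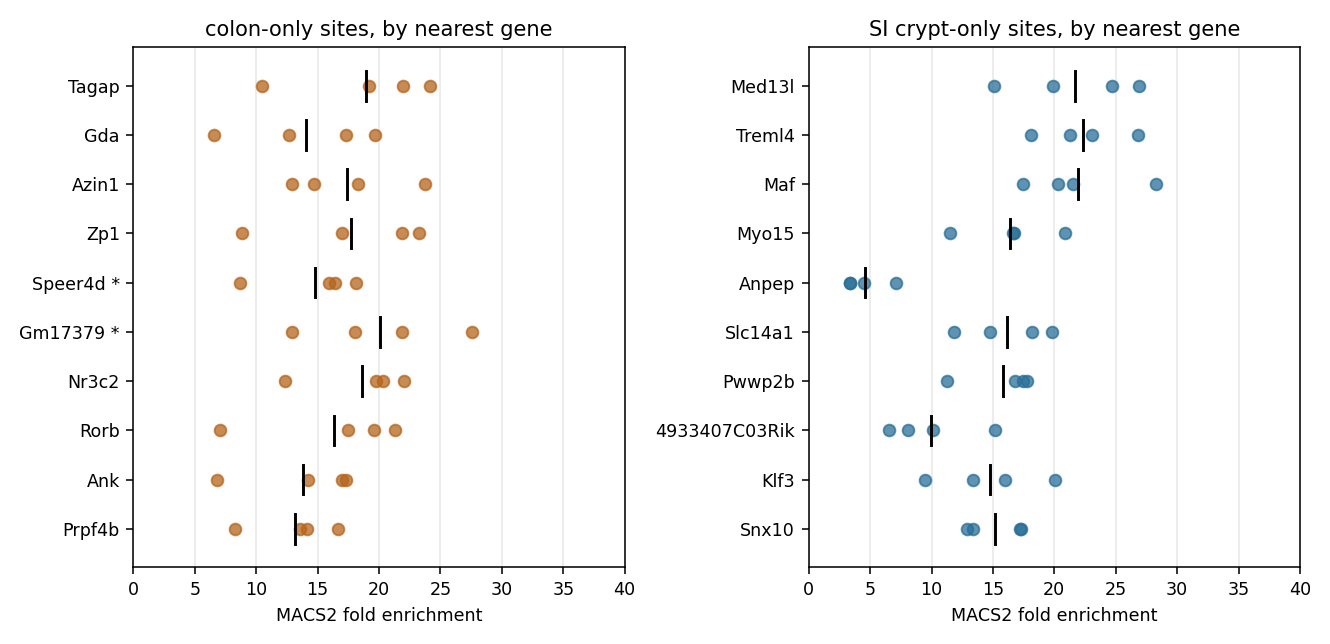
MACS2 fold enrichment (horizontal axis) of the 10 colon-only sites (left) and the 10 crypt-only sites (right) of highest mean -log10 q, named by the nearest gene; each point is 1 of the 4 samples with the peak, the vertical line is their mean, and an asterisk marks regions the authors left out. The leading sites of both sides mostly lay between 10 and 25, while Anpep stayed at 3.36 to 7.14.

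SI villus samples took no part in choosing these sites, and so give a separate readout in small intestine, although they may come from the same mice as the SI crypts. Of the 36 crypt-only sites, 100%, 94.4%, 77.8% and 97.2% had a peak in SI villus samples 1 to 4. Of the 179 colon-only sites, 17.9%, 11.7%, 2.79% and 21.8% did. The shares for crypt-only sites were above those for colon-only sites in each of the 4 samples. All 4 SI villus samples had a peak at 28 crypt-only sites and at 0 colon-only sites, and 111 colon-only sites had none in any. For the whole union the 4 shares were 28.2%, 18.9%, 6.16% and 14.4%. The same held for the sets narrowed by the pooled lists, where 20 of 27 crypt-only and 0 of 95 colon-only sites were found in all 4 SI villus samples.

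Chromatin accessibility differed between both sets in the colon samples. Colon ATAC-seq samples 1 to 3 had a peak at 39.7%, 52.0% and 60.3% of colon-only sites and at 2.78%, 2.78% and 5.56% of crypt-only sites. SI crypt ATAC-seq samples had one at 42.5%, 34.1% and 41.3% of colon-only sites and at 27.8%, 19.4% and 38.9% of crypt-only sites. For the whole union the SI crypt shares were 33.7%, 29.7% and 35%. The 179 colon-only sites were thus open in SI crypt above the shares of the union, whereas at most 2 of 36 crypt-only sites were open in a colon sample. This did not hold for the 95 colon-only sites absent from the pooled SI crypt VDR list. Their SI crypt shares were 28.4%, 24.2% and 30.5%, below those of the union. At sites called in all 8 samples the SI crypt shares were 79.9%, 70.8% and 80.2%. The pooled ATAC-seq lists were of unequal length, with 39428 peaks for colon and 74734 for SI crypt. By these lists, 72 colon-only sites were open in both tissues, 37 in colon alone, 16 in SI crypt alone and 54 in neither. Of crypt-only sites, 17 were open in SI crypt alone, 2 in both, 0 in colon alone and 17 in neither.

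**Figure D3:**
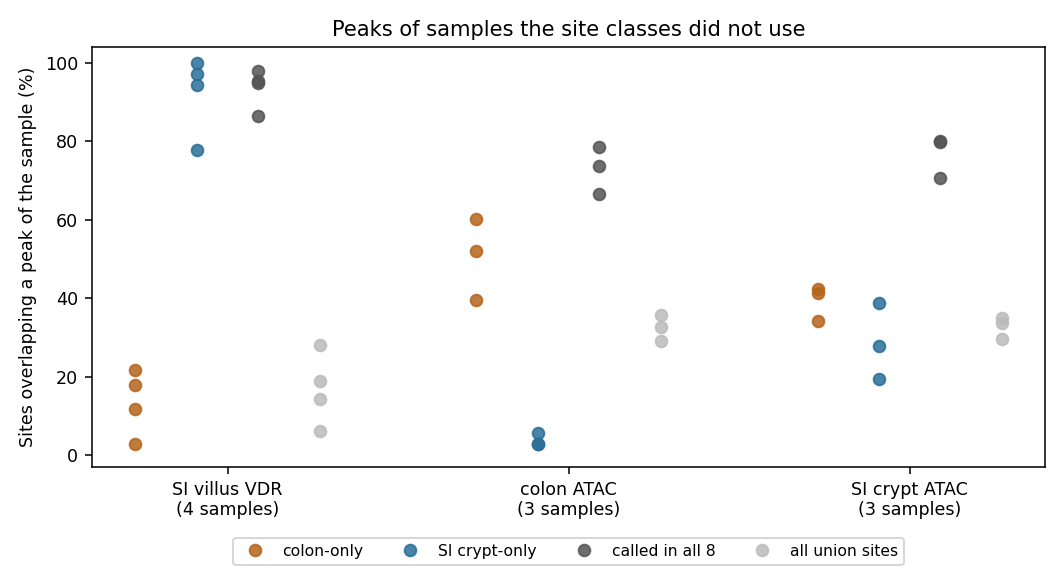
Share of sites (vertical axis, percent) with a peak in each SI villus VDR ChIP-seq sample and in each colon and SI crypt ATAC-seq sample, which the site classes did not use; each point is 1 sample and the color is the class of sites. Crypt-only sites reach 77.8% to 100% in SI villus and at most 5.56% in colon ATAC-seq, and colon-only sites at most 21.8% in SI villus.

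The same question was put to whole samples with the 1000 strongest peaks of each, so that equal numbers of peaks were compared. These peaks still differed in strength. The lowest -log10 q among them ran from 4.11 in SI crypt sample 3 to 26.0 in colon sample 4. In colon the SI villus share below rose with the number of peaks called, 1760, 5010, 6137 and 10100. The part of list length and depth in these values was not tested. The share that overlapped the pooled SI villus VDR list was 61.4%, 69.6%, 71.4% and 74.3% in colon and 86.1%, 77.7%, 81.0% and 81.4% in SI crypt. Every colon sample was below every SI crypt sample, with means of 69.2% ± 5.53 and 81.6% ± 3.46 (SD, n = 4). The share in colon ATAC-seq peaks minus that in SI crypt ATAC-seq peaks was -1.90, -4.00, -5.00 and -5.30 percentage points in colon and -8.20, -15.6, -15.0 and -19.1 in SI crypt. This difference was also higher in every colon sample. Its means were -4.05 ± 1.54 and -14.5 ± 4.56 points (SD, n = 4). Both comparisons gave p = 0.0286 in the two-sided exact permutation test, the smallest that 4 against 4 samples allow, and an adjusted p of 0.0714 over the 5 sample values tested by the exact permutation test. Neither passed 0.05.

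Region classes overlapped between the tissues. Among the 1000 strongest peaks, 22.3%, 18.7%, 22.4% and 24.2% lay within 1 kb of a TSS in colon, and 45.5%, 17.4%, 17.8% and 18.7% in SI crypt. SI crypt sample 1 was far above all others, and without it the order of the means turned, from 2.95 points lower to 3.93 points higher in colon. The exact permutation p over all samples was 1. Intergenic peaks made up 46.3% ± 2.97 in colon and 40.4% ± 10.9 in SI crypt (SD, n = 4; exact permutation p = 0.4). Without SI crypt sample 1 that difference went from 5.95 to 0.592 points. GC content at the summits was 51.5% ± 0.958 and 53.2% ± 5.20 (exact permutation p = 0.886), and its order turned as well without SI crypt sample 1, to 0.835 points higher in colon.

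**Figure D4:**
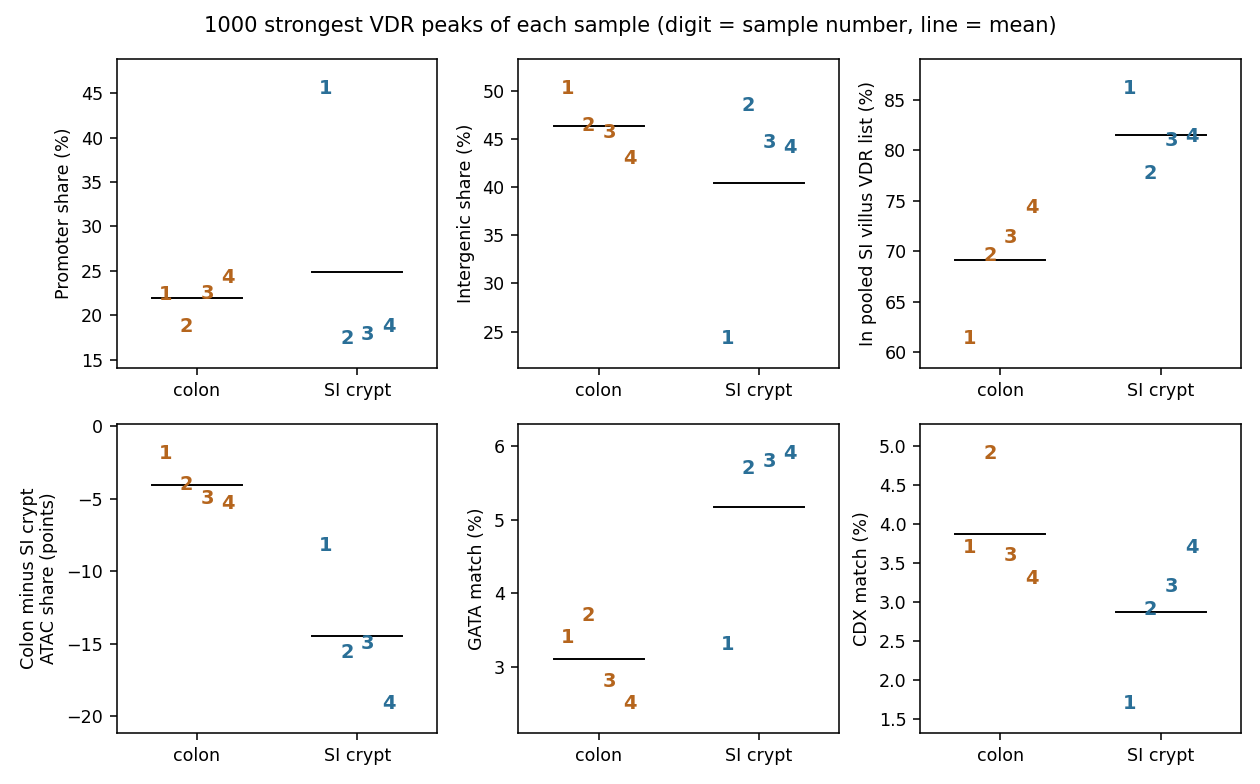
Values of the 1000 strongest VDR peaks in each colon and SI crypt sample (digit, sample number; line, mean of 4): share in promoters, intergenic share, share in the pooled SI villus list, colon minus SI crypt ATAC-seq share, and shares with a GATA or CDX match. Groups do not overlap in the SI villus and ATAC-seq panels, and SI crypt sample 1 stands apart in the promoter panel at 45.5%.

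Sites bound on 1 side were mostly far from promoters. Of colon-only sites 7 (3.91%) were promoter sites, 113 (63.1%) intergenic, 55 intronic and 4 exonic. Of crypt-only sites 1 was a promoter site, 17 (47.2%) were intergenic, 15 intronic and 3 exonic. The 308 sites called in all 8 samples had 97 promoter sites (31.5%), and the whole union 23.0%. The median distance to a TSS was 21.4 kb for colon-only, 24.0 kb for crypt-only and 9.39 kb for sites called in all 8 samples.

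Motifs of the identity factors were searched as fixed letters on both strands within 100 bp of the summits. The GATA match AGATAAG occurred in 3.40%, 3.70%, 2.80% and 2.50% of the 1000 strongest colon peaks. In SI crypt it occurred in 3.30%, 5.70%, 5.80% and 5.90%. SI crypt samples 2 to 4 were above all colon samples, and SI crypt sample 1 lay within the colon range. The means were 3.10% ± 0.548 and 5.18% ± 1.25 (SD, n = 4; exact permutation p = 0.0857, adjusted p = 0.471 over 11 motifs). In windows 1 kb away the means were 2.48% and 2.63%. The CDX match TTTATGG occurred in 3.88% ± 0.704 of colon and 2.88% ± 0.850 of SI crypt peaks (SD, n = 4; exact permutation p = 0.143). The CDX difference of 1 point was 0.608 without SI crypt sample 1 and 0.658 without colon sample 2. None of the 11 motifs passed the exact permutation test between the tissues after adjustment, and 0 had an unadjusted p under 0.05. An exact DR3 match occurred in 5.83% ± 1.61 of colon and 6.73% ± 2.50 of SI crypt peaks (SD, n = 4; exact permutation p = 0.543) and in none of the windows 1 kb away. AP-1, with the letters TGAGTCA, matched 7.90% and 6.48%, against 2.95% and 2.98% in the distant windows. With 1 sample left out, the colon minus SI crypt difference ran from 0.725 points, without colon sample 2, to 1.77 for AP-1, and from -2.04, without SI crypt sample 1, to -0.108, without SI crypt sample 4, for DR3.

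Within the sets bound on 1 side, AGATAAG was found at 6 of 36 crypt-only and 3 of 179 colon-only sites, with 1.96% in the whole union. TTTATGG was found at 14 of 179 colon-only sites and 1 of 36 crypt-only sites, with 1.97% in the whole union. 4 of the 6 GATA matches in crypt-only sites are shown with 7 bases on each side, with the match in capitals. CDX matches are shown likewise for the 3 strongest among the colon-only sites that held one outside left-out regions. These matches are shown because they carry this difference in counts.
Treml4, crypt-only, chr17:48411760-48411780 (+): ctgagccAGATAAGcttggtg
Maf, crypt-only, chr8:118064006-118064026 (+): gacaagcAGATAAGataacag
Myo15, crypt-only, chr11:60299792-60299812 (+): gggacacAGATAAGacccagg
Ugt2a3, crypt-only, chr5:87809519-87809539 (+): gcaccagAGATAAGcagatgg
Gm9758, colon-only, chr5:14925668-14925688 (-): cttccatTTTATGGacatctc
Crebl2, colon-only, chr6:134773396-134773416 (-): atacattTTTATGGctggagg
Kcnh8, colon-only, chr17:52869806-52869826 (+): tgcacttTTTATGGgaaagca
At the Treml4 and Maf sites the GATA match lay 37 and 14 bases before the summit, next to the near DR3 match printed above. Of the 14 colon-only sites with a CDX match, 12 remained when the left-out regions were removed.

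Genes were linked to peaks whose midpoint lay within 10 kb of their TSS. Of 22225 gene symbols, 28 were bound in all 4 colon and none of the SI crypt samples (0.126%), and 7 in the opposite case (0.0315%). With at least 3 samples on 1 side the counts were 206 (0.927%) and 30 (0.135%). The colon count rose to 175 without colon sample 1, 48 without colon sample 4 and 107 without SI crypt sample 1. The SI crypt count rose to 14 without colon sample 4 or SI crypt sample 2 and to 18 without SI crypt sample 3. The 7 genes on the SI crypt side were Akp3, an intestinal alkaline phosphatase, Treml4, Cd79b, Il9, Ski, Bri3bp and Pgpep1l. Each of them was bound in 3 or 4 SI villus samples. The sites of Ski and Bri3bp with a peak in all 4 SI crypt samples nevertheless overlapped a peak of the pooled colon list. The 28 on the colon side, chosen for naming after their values were seen, held Car1, Fkbp5, a target of glucocorticoid signalling, Fosl1, an AP-1 subunit, Itpr1, the calcium release channel of the endoplasmic reticulum, and Pdcd4. In Itpr1 the site 8.47 kb upstream of the TSS had 11.8, 17.1, 18.3 and 21.2. The Pdcd4 site called in all 4 colon samples, 2.74 kb upstream of the TSS, overlapped a peak of the pooled SI crypt list.

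Genes of small-intestinal digestion and uptake were bound on the SI crypt side. Of 21 list members, 6 were bound in both pooled lists, 12 in SI crypt alone, 0 in colon alone and 3 in neither. That is 85.7% for SI crypt and 28.6% for colon, whereas over all genes the shares were 22.5% and 32.5%. The 12 held Lct, Sis, Slc2a2, Slc2a5, Slc15a1, Anpep, Apoa1, Apoa4, Apob, Fabp1, Npc1l1 and Enpep, which encode disaccharidases, sugar and peptide carriers, peptidases and lipid-handling proteins. Of these, Lct, Sis, Slc2a5 and Enpep were bound in the pooled list alone and in 0 of 4 SI crypt samples, while Lct and Slc2a5 were each bound in 3 SI villus samples. Counted by samples, 13 members were bound in more SI crypt than colon samples and none in more colon samples. Of all 22225 gene symbols, 2683 were bound in more SI crypt samples and 3130 in more colon samples.

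The peaks at several of these genes were wide and low. At Apoa4, an apolipoprotein of chylomicrons (chr9:46050289-46052212, exonic), fold enrichment was 5.94, 5.15 and 3.98 in SI crypt samples 1, 3 and 4, and sample 2 had no peak. At Apoa1 (chr9:46037041-46038931) it was 5.86, 3.58 and 5.34 in the same samples. The wide Akp3 site covered 2857 bp (chr1:89023015-89025871) with 5.23, 3.33, 3.61 and 3.41, and the site at its neighbour Alpi 1309 bp with 3.35, 3.80, 2.71 and 3.15. None of the colon samples had a peak at these 4 sites. None of these 4 sites had an ATAC-seq peak in a colon sample, and those at Apoa4, Akp3 and Alpi had none in an SI crypt sample. The Apoa1 site, however, overlapped a peak of the pooled ATAC-seq list of each tissue. Another Akp3 site was narrow, with 416 bp, and lay 2.78 kb upstream of the TSS (chr1:89018595-89019010). It had 10.5, 6.02 and 8.52 in SI crypt samples 2 to 4 and no peak in colon. An ATAC-seq peak was present there in 2 SI crypt and 0 colon samples. Creb3l3, a liver and small-intestine factor of lipid metabolism, was bound in 3 SI crypt and no colon samples, with 3.91, 2.93 and 3.15 in SI crypt samples 1, 3 and 4.

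Genes of colonocyte transport leaned the other way. Of 20 members, 4 were bound in both pooled lists, 8 in colon alone, 0 in SI crypt alone and 8 in neither, which is 60% for colon and 20% for SI crypt. The 8 were Car1, Car2, Car4, Aqp8, Scnn1a, Slc5a8, Best2 and Guca2a. Of these, Slc5a8 and Best2 were bound in the pooled list alone and in 0 of 4 colon samples. Car2, Car4 and Guca2a were each bound in 1 colon sample. Car1, the carbonic anhydrase of the colon surface, had 2 colon-only sites in its introns. At chr3:14776881-14777991 the fold enrichment was 2.24, 2.50, 2.59 and 3.50, and at chr3:14772359-14772735 it was 2.14, 2.28, 1.95 and 3.08. These values were low, as at the digestive genes in SI crypt, and no ATAC-seq sample had a peak there. Aqp8, the water channel of colonocytes, was bound in 3 colon samples, at 2 sites, and in no SI crypt sample.

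Of 13 prostaglandin genes found, 2 were bound in both pooled lists, 5 in colon alone and 0 in SI crypt alone, which is 53.8% for colon and 15.4% for SI crypt beside 32.5% and 22.5% of all genes. By samples, most of these 5 did not lean to colon repeatedly. Within 10 kb, Ptges2 was bound in 0 of 4 colon samples and Ptges in 1. Hpgd was bound in 1 colon and 1 SI crypt sample, and Ptger4 in 0 colon and 1 SI crypt sample. Slco2a1, the prostaglandin importer, was bound at an intronic site (chr9:102913041-102913540) in colon samples 2 to 4, with 5.62, 4.25 and 8.94, and in no SI crypt sample. Ptges, the prostaglandin E synthase, had a site 36.3 kb into the gene (chr2:30748854-30749353). Colon samples 2 to 4 had 14.8, 13.8 and 14.6 there, SI crypt sample 1 had 6.77, and all 4 SI villus samples had a peak. Among 13 colon identity and posterior factors, Hoxa13, Hoxb13 and Hoxb9 were bound in the pooled colon list and not in the pooled SI crypt list. Hoxa13 and Hoxb13 were bound in 0 of 4 colon samples and Hoxb9 in 2. The 4 members Cdx1, Cdx2, Gata6 and Klf4 were bound in both pooled lists. Among goblet genes 7 of 13 were bound in both, 3 in colon alone and 0 in SI crypt alone. Of these 3, Muc4 was bound in 0 of 4 colon samples and Agr2 in 1. Foxa3, a goblet cell factor, had 6.8, 4.2 and 7.8 at an intronic site in colon samples 2 to 4 and no peak in SI crypt. Of 12 Paneth and antimicrobial genes found, 3 were bound in the pooled SI crypt list (25%, near the 22.5% of all genes) and none in the pooled colon list.

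The counts of the lists below stand beside 32.5% of all genes bound in the pooled colon list and 22.5% in the pooled SI crypt list. Of all 22225 gene symbols, 3146 were bound in colon alone and 936 in SI crypt alone. Calcium absorption genes were bound in 6 of 12 cases in each pooled list (50%), 5 of them shared. Vitamin D metabolism genes were bound in 4 of 11 in each, 2 of them shared. That is 36.4%, which in colon is near the share of all genes. Metal transporters were bound in 13 of 15 in colon and 12 of 15 in SI crypt, 12 of them shared. Of 22 xenobiotic genes, 12 were bound in both, 3 in colon alone and 4 in SI crypt alone, the last being Cyp3a11, Cyp3a25, Cyp2b10 and Cyp1a1. By samples these 4 genes were bound in 1, 2, 1 and 0 SI crypt samples and in 0 colon samples. They were bound in 3, 3, 2 and 2 SI villus samples. The only SI crypt sample with a peak within 10 kb of Cyp3a11 or Cyp2b10 was sample 1. Gsta4, a glutathione transferase, was bound at its promoter in colon samples 2 to 4 with 5.25, 4.51 and 6.28 and in no SI crypt sample. Junction genes were bound in 14 of 18 in colon and 15 of 18 in SI crypt, 13 of them shared. Stem cell genes were bound in 8 of 18 in each, and 6 were shared. Small intestine identity factors were bound in 7 of 13 in colon and 8 of 13 in SI crypt, and Gata4 and Creb3l3 in SI crypt alone. By samples, however, Gata4 was bound within 10 kb in 1 colon and 0 SI crypt samples. TGF-beta and growth arrest genes were bound in 10 of 14 in colon and 8 of 14 in SI crypt. Transcription factors that the study names, a list chosen by the study on these samples, were bound in 10 of 15 in each, and its solute carriers in 5 of 7 in colon and 3 of 7 in SI crypt. Among the latter Slc43a2, an amino acid carrier, had an intronic site with 5.08, 8.31 and 3.57 in SI crypt samples 1, 2 and 4 and none in colon. Immune markers were bound in 2 of 18 in colon (11.1%) and 3 of 18 in SI crypt (16.7%). Stromal markers were bound in 3 of 14 (21.4%) and 1 of 14 (7.14%). These shares were below those of all genes in the same lists. The median difference in the number of binding samples, colon minus SI crypt, ran from -1.50 to 1.50 over the 18 lists and was 0 over all bound genes.

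**Figure D5:**
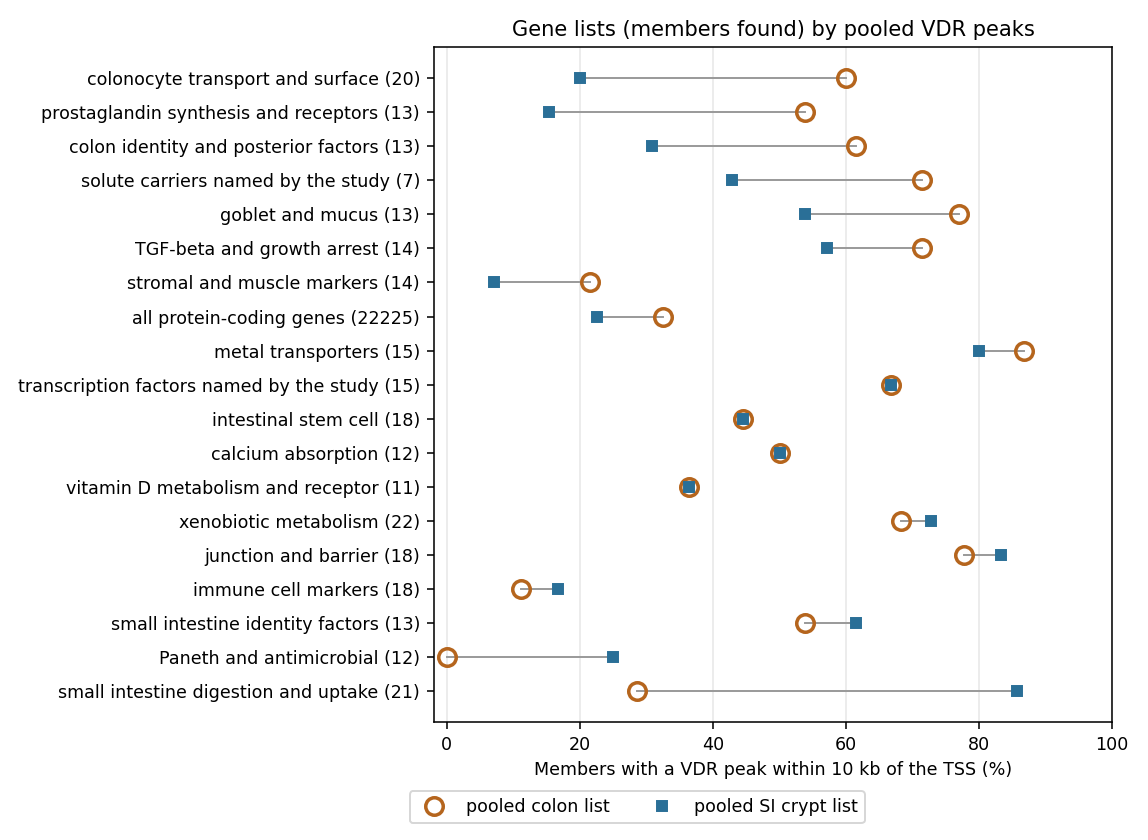
Share of list members (horizontal axis, percent) with a VDR peak within 10 kb of the TSS in the pooled colon list (open circles) and the pooled SI crypt list (squares), with the number of members found in brackets. Digestion and uptake genes stand at 28.6% and 85.7%, colonocyte transport genes at 60% and 20%, and all genes at 32.5% and 22.5%.

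The tissue labels were checked at marker promoters in ATAC-seq. Of 9 small-intestinal markers, 7 had no promoter peak in any colon sample and 2 had none in any SI crypt sample. Of 8 crypt markers, Lgr5, Smoc2 and Axin2 were open in 3 of 3 SI crypt samples, and 6 were open in no colon sample. The colon markers separated the tissues less. Of 9, 4 were open in all 3 colon samples and 4 in all 3 SI crypt samples. Hoxb13, a posterior factor, was open in 3 of 3 colon and 0 of 3 SI crypt samples, whereas Car1, Slc26a3 and Aqp4 had no promoter peak in colon and Aqp4 had one in 3 of 3 SI crypt samples. Of 16 immune markers, 16 had no promoter peak in colon and 14 had none in SI crypt. Cd79b, the B-cell receptor subunit, was open in 1 SI crypt sample, and its intronic VDR site had 12.3, 17.3, 9.20 and 14.9. Of 12 stromal and muscle markers, 11 had no promoter peak in colon and 10 had none in SI crypt. The part of immune or stromal cells in the compared sites was not tested.

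At the genes the study names, most sites were shared. The site over the promoter of Cyp24a1, whose nearest TSS is that of the neighbour Pfdn4 (chr2:170320564-170323077), had 6.94, 2.12 and 4.90 in colon samples 2 to 4 and 8.48, 16.3, 3.62 and 2.07 in SI crypt. The intronic site of Slc37a2, a sugar phosphate exchanger (chr9:37053774-37054404), had 6.73, 4.83 and 8.49 in colon samples 2 to 4 and 27.6, 29.9, 14 and 16.9 in SI crypt, without overlap between the tissues. Open chromatin was present there in 0 of 3 colon and 3 of 3 SI crypt ATAC-seq samples. Sites near Nfatc3, a calcineurin-dependent factor, and Ppard, a lipid-sensing receptor, were each called in 3 colon and all 4 SI crypt samples.

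Zinc and manganese genes also shared sites. The strongest site of Slc30a10, a manganese exporter, lay 47.9 kb downstream of the TSS (chr1:187326339-187326982) with 14.4, 23.0, 18.2 and 25.8 in colon and 24.3, 38.1, 24.3 and 29.4 in SI crypt. The promoter site of Slc39a4, the zinc importer, was called in all 8 samples at 3.88 to 7.27. In the calcium genes, a site 87.3 kb upstream of Atp2b1 was called in 4 colon and 1 SI crypt samples, and the site 22.7 kb upstream of S100g in 4 and 3. A site 50.2 kb upstream of Atp2b1 (chr10:98327255-98327895) was colon-only, with 5.22, 5.67, 5.69 and 6.58, and overlapped the pooled SI crypt list. The site 38.4 kb into Gata4 (chr14:63851763-63852583) was called in 3 colon samples at 10.3, 12.0 and 13.3 and in SI crypt sample 1 at 5.15, although its chromatin was open in 3 of 3 SI crypt and 0 of 3 colon samples. Near Gstm1, a site 7.65 kb upstream was called in all 4 SI crypt samples at 14.5, 10.9, 8.86 and 11.7 and in colon sample 4 at 4.86.

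At the 308 sites called in every sample, log2 fold enrichment centred on the sample median was compared with limma. At an adjusted p of 0.05, 5 sites were higher in colon (1.62%) and 7 in SI crypt (2.27%), and 68 had an unadjusted p under 0.05. The largest difference towards SI crypt was at an intronic site of Zan (chr5:137861046-137861622), a sperm zona-binding protein gene. Fold enrichment there was 6.02, 7.80, 4.63 and 5.04 in colon and 14.6, 20.4, 11 and 14.8 in SI crypt, so the tissues did not overlap (log2 difference, colon minus SI crypt, -1.28 ± 0.242 SE, adjusted p = 0.0181). The promoter site of Neu1, a lysosomal sialidase gene (chr17:35067493-35068359), had 4.07, 3.69, 4.03 and 3.39 against 9.45, 10.6, 7.50 and 6.97, again without overlap (-1.08 ± 0.254 SE, adjusted p = 0.0439).

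The largest difference towards colon was at an intronic site of Tnip3, an inhibitor of NF-kB signalling (chr6:65548461-65548881). It had 8.68, 21.2, 19.2 and 21.7 in colon and 7.17, 7.72, 7.92 and 9.29 in SI crypt (1.15 ± 0.231 SE, adjusted p = 0.0181). Here colon sample 1 lay within the range of SI crypt before centring. Further sites higher in SI crypt were near Kdm2b, Cd209a, Sdcbp2 and Ptprj, and the other sites higher in colon near Prg2, Xab2, Mki67 and Ctnna1. Of these, the Kdm2b site lies in an intron of Orai1, the calcium entry channel, and the Cd209a site in a left-out region.

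The number of calls depended on single samples. Without colon sample 3, colon sample 4, SI crypt sample 2 or SI crypt sample 4 there were 0 calls by limma, with 44, 60, 47 and 65 sites at an unadjusted p under 0.05. Without colon sample 2 there were 2 calls and without SI crypt sample 3 there were 6. Without centring 0 sites were called higher in colon and 1 higher in SI crypt.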

How the data were processed

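VDR ChIP-seq peak lists of 4 colon and 4 SI crypt samples were compared, with SI villus and ATAC-seq lists as separate readouts. Alignment to mm9 with Bowtie2 2.2.6 and peak calling with MACS2 2.1.0.20150731 are credited to the notes of the submitters. According to the file headers and the paper, the authors called peaks from read pairs at q 0.05 without a control sample, keeping 1 fragment per position, for each sample and for the merged samples. The deposited fold enrichment is the ratio of the summit pileup to the local background, and the deposited -log10 q comes from the same call. The other deposited columns are positions; in the pooled intervals the authors centred each peak on its summit and left some peaks out. Without read counts no count model was fitted. Columns of the authors' differential sites were not used.

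Here the peaks of the mitochondrial genome were dropped, and peaks sharing at least 1 bp were joined. Genes (22367 protein-coding, 22225 symbols) came from GENCODE vM1 on mm9. Of 272 list entries, all but 3 were found, 2 of them by an older symbol. Sequences were read from mm9. Samples were compared by two-sided exact permutation tests with Benjamini-Hochberg adjustment, and sites called in all 8 samples with limma 3.58.1, both at 0.05; scripts were tested on simulated data. Python 3.11.15 and pysam 0.24.0 were used.

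The genes named are the neighbours of the 10 strongest colon-only and crypt-only sites and of the called sites of the limma test, list members bound in at least 3 samples of 1 tissue and none of the other, up to 3 further members per list, and the genes the study names. Other genes were named after their values were seen. The compared sites, lists and tests were chosen with earlier results of these data known. Labels do not tie samples to mice, so p-values measure only the spread between these samples, and colon and SI crypt samples may share a mouse. No batch is given in the labels. Some items of the lists and calls are not reported here.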

Additional observations from a re-analysis of the deposited data

Results flagged for a closer look

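Samples were checked for 1 value far from the other 3 of the tissue, which chance gives in about 1 of 20 groups; 98 groups were checked and 8 values stood apart. SI crypt sample 1 stood apart in 5 measures: 13381 peaks called, a promoter share of 45.5%, a GC content of 61.0% at the summits, a share of 3.30% with the GATA match and of 6.50% with the ETS match CCGGAAG. Colon sample 2 had the HNF4A match CAAAGTCCA in 2.20% of its peaks against 1.10% to 1.20% in the other colon samples. SI crypt sample 3 had a fold enrichment of 11.2 at the crypt-only site near Pwwp2b, and colon sample 1 had 7.06 at the shared site near Mki67.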

How the results depend on the processing

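None of the 5 sample values and 11 motif shares passed the threshold in the main run or under any alternative. That outcome was nearly fixed in advance and is no sign of stability. The smallest possible exact permutation p, 0.0286, stays above 0.05 after adjustment unless several values reach it. Limma calls were lost under several alternatives. Promoter share ranged from -5.43 to 3.93 and GC content from -2.80 to 0.835 points (colon minus SI crypt) when 1 sample was left out. Motif shares reversed at all called peaks for FOXA (0.211), KLF (0.782) and ETS (-1.31), and in the 50 bp window for HNF4A (0.200), FOXA (0.475) and KLF (0.0750). Leaving out 1 sample gave -0.283 to 0.0833 for HNF4A, -0.658 to 0.475 for FOXA, -0.392 to 0.0417 for KLF and -0.0500 to 0.250 for posterior HOX. Colon-only sites numbered 103 at a -log10 q of at least 5, 42 with the 1000 strongest peaks and 1004 with at least 3 samples, for which crypt-only sites numbered 113. Leaving out 1 sample gave 184 to 888 and 36 to 72. Genes bound on 1 side numbered 9 and 2 within 2 kb, 61 and 16 within 50 kb and 206 and 30 with at least 3 samples, and 28 to 175 and 7 to 18 with 1 sample left out. Limma calls numbered 1 without centring and 0 to 17 with 1 sample left out. With the replicate block there were 14 limma calls against 12, and the paired exact test of the sample values cannot go below 0.125. Same-numbered samples deviated together with correlations of 0.187, 0.231, 0.104 and -0.0531, so the numbers were not taken to pair the samples; colon samples 1 and 2 alone correlated best with their own number. Without the left-out regions, an alternative chosen after seeing the data, there were 164 colon-only sites, 36 crypt-only sites and 13 limma calls. The causes of these changes were not tested. Depth limits what an absent peak can show.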

Other observations

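Among genes bound in at least 3 samples of 1 tissue and none of the other, chosen here after their values were seen, the gasdermin genes Gsdmc3, Gsdmc4, Gsdmcl1 and Gsdmd were each bound in 3 colon and 0 SI crypt samples and in 0 SI villus samples. Guca2b, which encodes uroguanylin, and Ephx1, an epoxide hydrolase, were each bound in 3 SI crypt, 4 SI villus and 0 colon samples. Neighbouring genes can share a peak.

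Similarity of the 1000 strongest peaks, as shared sites over all sites of a pair, was 29.7% to 55.7% between colon samples, 27.6% to 49.6% between SI crypt samples and 21.6% to 35% between tissues.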
